A study of Mus musculus with 18 samples.

Results

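Gata1, Myb, Myc and Mnt are 4 transcription factor genes, each covered by 1 probe among the 6868 probes of an array that named 5974 genes. They were taken as every probe whose platform symbol is one of these names, and their log2 ratios were followed over a course of differentiation on all 18 arrays of the series. The cells were MEL (murine erythroleukemia) cells, an established line of red cell precursors that no longer mature by themselves and are induced to make hemoglobin with HMBA (hexamethylene bisacetamide). Each two-colour array set RNA of cells 1, 2, 3, 4, 5 or 6 days into HMBA against RNA of cells without HMBA, and on day 0 arrays both channels held RNA without HMBA. Titles gave a series letter and, for some arrays, the letters SD. Series A had 7 arrays (days 0 to 6), series B had 6 (days 0 and 2 to 6), and 5 more arrays (days 0, 2, 3, 5 and 6) carried SD beside the letter B. On the SD arrays of days 2, 3, 5 and 6 the labels placed induced RNA in the second channel, whereas it was in the first on the other arrays. All groups were the same line and differed by day alone. The labels name no culture, so p-values measure only how these arrays vary, and that variation may be technical.

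Gata1 is a zinc finger factor that binds GATA sites and drives the erythroid program, including globin and heme genes. Myb holds hematopoietic progenitors in a dividing, immature state. Myc forms a dimer with Max on E-boxes and raises genes of growth and proliferation, while Mnt also pairs with Max, occupies the same kind of site and acts against Myc. In MEL cells, forced expression of either Myb or Myc is known to block induced maturation. The comparison of interest was therefore the lineage factor against the progenitor factors and the Myc antagonist.

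Promoters of Myb and Mnt are shown because these were the members whose late ratios passed a test against 0, and because the motifs searched for are those the members bind. The search covered the 250 bases before the RefSeq start (GRCm38.p6) on both strands for the GATA letters AGATAA or AGATAG, also with T as the first letter, the E-box CACGTG and the Myb core AACNG. The promoter of Mnt (chr11:74830674-74830923, plus strand) held an E-box at bases -123 to -118 from the start and 2 Myb cores, none of which overlapped, while that of Myb (chr10:21160985-21161234, minus strand) and that of Gata1 held 0 of the 3 motifs. Capitals mark the matches, 5′ to 3′. For Mnt and Gata1 the start used lay inside the span of the gene, so these stretches need not be where the gene begins. Sequence further upstream was not searched. Of 32851 mouse promoters of this length 6.02% held the E-box, 74.2% the Myb core and 26.5% a GATA motif, and a match describes letters and not binding.
Myb: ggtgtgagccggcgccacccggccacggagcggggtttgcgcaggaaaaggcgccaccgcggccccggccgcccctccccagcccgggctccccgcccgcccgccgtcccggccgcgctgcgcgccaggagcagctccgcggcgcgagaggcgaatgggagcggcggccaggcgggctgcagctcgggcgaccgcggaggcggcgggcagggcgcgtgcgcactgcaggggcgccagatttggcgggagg
Mnt: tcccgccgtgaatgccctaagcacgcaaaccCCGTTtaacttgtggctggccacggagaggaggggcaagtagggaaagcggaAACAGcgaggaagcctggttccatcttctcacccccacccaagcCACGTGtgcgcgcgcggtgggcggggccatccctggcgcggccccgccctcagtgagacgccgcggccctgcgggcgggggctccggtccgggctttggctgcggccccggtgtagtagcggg

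Values are log2 ratios centred on the median of each array. Their likely direction is induced over control, since the alpha-globin probe Hba-ps3, whose gene family HMBA is known to raise, read between 3.87 and 6.38 on the 6 arrays of days 4 to 6 in series A and B, against 0.51 and 0.67 on the day 0 arrays. On the SD arrays of days 2, 5 and 6 that probe read -4.25, -2.78 and -4.20, opposite to the other arrays. On the SD array of day 3, however, it read 0.94. On that of day 0 it read 1.73, where control RNA in both channels cannot show an orientation. Over all probes SD arrays correlated with the series B array of their day as deposited (r from 0.42 to 0.66), and the median gap between them over the 4 induced days was 0.99 log2 as deposited and 1.83 with the SD sign turned. The highest r, 0.66, was that of day 0, and day 0 of series A and B correlated at 0.73. Arrays thus resembled each other without any induced RNA, so likeness over all probes cannot tell the orientation of SD arrays. Tests used the 13 arrays without SD, and SD values are given beside them as deposited. Array medians before centring lay between -0.15 and 0.70 log2, and 2008 to 4945 probes had a value on an array. The median absolute deviation was 0.60 to 0.95 log2 in series A and 0.88 to 1.19 in series B. Pairs of the 13 arrays correlated between -0.08 and 0.76 across probes. Of the erythroid markers on the array 6 probes had a late value, of which 4 were above 0, while 0 of 6 granulocyte and macrophage probes had enough values for one. Of 4 megakaryocyte probes 3 had a late ratio, 2 above 0, and Itga2b, the platelet integrin gene, was called (2.47, adjusted p = 0.0013 in limma, late arrays 1.24 to 3.33, against 0.32 and -0.37 on day 0). Of 5 mast cell probes 2 had one, 1 above 0 and 1 below 0, and both failed the filter. That of the protease gene Mcpt2 was -4.18 (adjusted p = 0.00065 in limma without the filter). That of Kit was 1.17 (adjusted p = 0.207). Of 9 B and T cell probes 2 had one, 1 above 0. The part of these markers in the results below was not tested. A ratio does not give a level, so the identity of the line could not be read from these markers.

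Myb had the clearest course of the 4 genes. For days 0, 1, 2, 3, 4, 5 and 6 of series A its log2 ratio was -0.08, -0.43, -0.49, -2.37, -3.13, -3.81 and -3.09, in that order. For days 0, 2, 3, 4, 5 and 6 of series B it was -0.06, -2.39, -0.57, -3.21, -0.97 and -1.13. All 11 induced arrays were below 0, for which no share over all probes was computed. On the 6 late arrays (days 4 to 6) alone, 10.4% of 810 probes were below 0 throughout. All 6 late arrays lay below both day 0 arrays for Myb, and the series were close on day 4 but 2.85 log2 apart on day 5. On a linear scale the late ratios ran from 0.0713 to 0.512, against 0.947 and 0.962 on day 0. Of 633 probes with a value on all 8 of these arrays, 2.21% had every late array below both day 0 arrays.

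**Figure D1:**
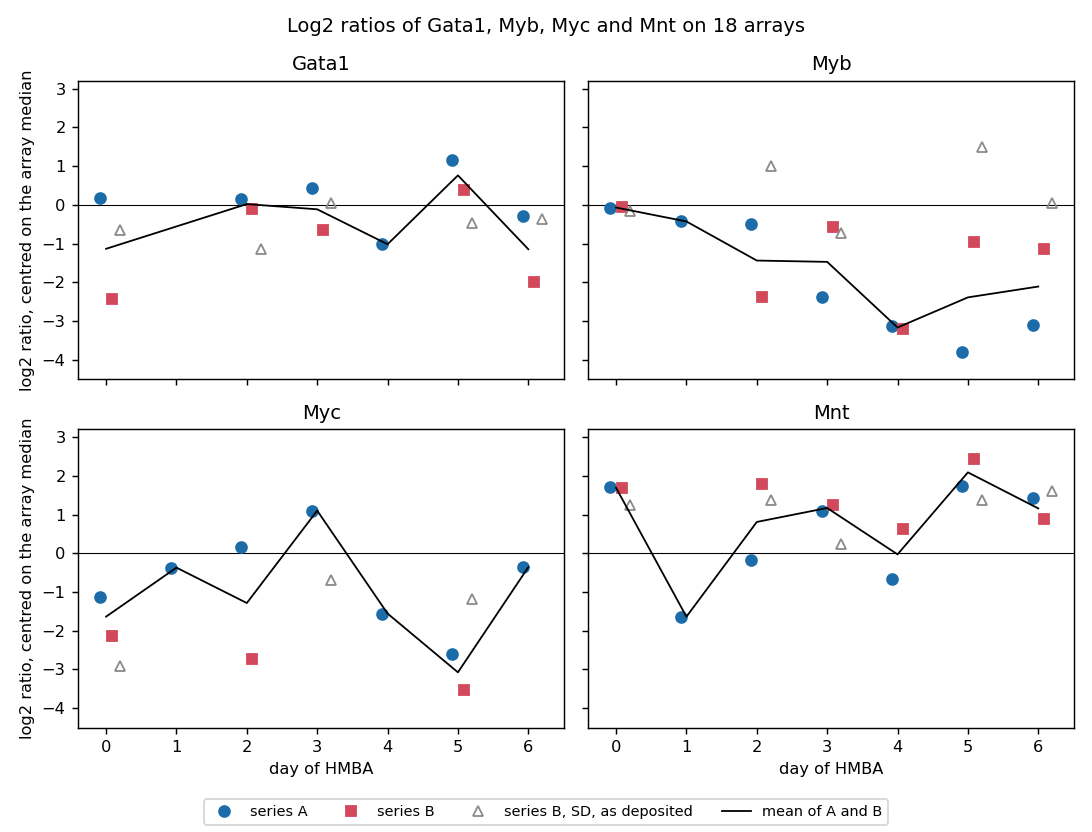
Log2 ratio, centred on each array's median, against the day of HMBA for Gata1, Myb, Myc and Mnt, with circles for series A, squares for series B, open triangles for SD arrays as deposited, and a line through the mean of A and B. Myb lies below 0 on every induced circle and square, while Mnt starts at 1.70 and 1.68 and Myc at -1.14 and -2.14 on day 0.

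The late ratio of Myb was tested against 0, the median of each array after centring, with the mean over days 4, 5 and 6. Control RNA set against itself did not read 0 for every probe. On day 0 of series A and B, Mnt read 1.70 and 1.68 and Myc -1.14 and -2.14, while Myb read -0.08 and -0.06. A call against 0 thus does not by itself show a difference between induced and control RNA. Myb had a mean late ratio of -2.55 log2 (SE 0.44, 95% interval -3.49 to -1.62), with an adjusted p = 0.0022 in limma over 1211 probes. By this test 25.5% of probes were called in either direction and 9.33% were called lower, and 9 probes had a lower value than Myb. The call of Myb held without each of the 13 arrays in turn (-3.03 to -2.08, adjusted p from 0.00146 to 0.0162) and under the 10 other alternatives (-2.55 to -2.22, adjusted p from 7.8e-06 to 0.0077). This test leaves out the spread of the day 0 arrays.

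Against day 0, Myb differed by -2.49 log2 late (SE 0.88, lower on 6 of 6 arrays), and only 2 of 1211 probes had a lower value. The difference was -1.58 with all 18 arrays and a constant term for SD arrays, which shifts them without turning their sign. On the 13 arrays the 95% interval ran from -4.36 to -0.62 and the unadjusted p was 0.0123. After adjustment over all probes, however, limma gave an adjusted p = 0.99985. In this comparison limma called 0 of 1211 probes (0%), and 2.31% had an unadjusted p under 0.05. Its spread within a day was 1.25 log2, against a median of 0.93 over the tested probes, while its day 0 arrays differed by 0.02 log2.

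Myb also moved against globin independently of the sign in which an array was deposited. On the 14 induced arrays that measured the Hba-ps3 probe, SD arrays included, Myb had the opposite sign on 14. SD arrays of days 0, 2, 3, 5 and 6 gave -0.15, 1.00, -0.72, 1.51 and 0.05 for Myb. It was above 0 on days 2, 5 and 6, where globin was below 0, and below 0 on day 3, where globin was above 0. Of 356 other probes with a value on all 14 arrays, 1 had the opposite sign on all (0.281%), and that probe was Myb. The day 0 arrays also had opposite signs for the 2 genes, with Myb between -0.15 and -0.06 there. This tally was chosen after the values were seen and is a description.

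Mnt, the Myc antagonist, read above the array median on most arrays, day 0 included. For days 0, 1, 2, 3, 4, 5 and 6 of series A it was 1.70, -1.64, -0.17, 1.09, -0.67, 1.74 and 1.42, in that order. For days 0, 2, 3, 4, 5 and 6 of series B it was 1.68, 1.79, 1.25, 0.62, 2.44 and 0.89. Low values were found on days 1, 2 and 4 of series A alone, and the late arrays overlapped day 0. SD arrays of days 0, 2, 3, 5 and 6 gave 1.24, 1.37, 0.24, 1.38 and 1.61, so that Mnt was above 0 on 5 of 5 SD arrays and on 15 of 18 arrays in all, whichever channel held induced RNA. The 3 day 0 arrays, which compared control RNA with itself, were all above 1, as were those of 3.84% of 1536 probes measured on all 3.

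The 2 tests therefore gave Mnt opposite signs. Its late ratio was 1.07 above 0 (SE 0.36, 95% interval 0.31 to 1.84, above 0 on 5 of 6 arrays), called in limma at an adjusted p = 0.0394, where 16.2% of probes were called higher. Set against day 0 its late difference was -0.62 log2 (SE 0.73, 95% interval -2.15 to 0.92, lower on 4 of 6 arrays, adjusted p = 0.99985 in limma). It was -0.40 with day 4 of series A left out, -0.39 without centring, -1.21 with quantile normalization and -1.02 with equal spread of the arrays. The call against 0 was lost without 7 of the 13 arrays (adjusted p up to 0.154 in limma). Leaving out either day 0 array left the ratio at 1.07. It was 1.19 with day 5 and 0.99 with day 6 of series A left out, and 0.86, 0.96 and 1.16 with days 4, 5 and 6 of series B left out in turn. With SD arrays turned and averaged in it was 0.55 (adjusted p = 0.421 in limma), and without the filter on missing values it was 1.07 (adjusted p = 0.0794).

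Early in the course Mnt had one of the lowest differences from day 0. Over days 1 and 2 its ratios were -1.64, -0.17 and 1.79, against 1.70 and 1.68 on day 0. That gave -2.11 log2 (SE 0.83, 95% interval -3.86 to -0.35), lower than all but 4 of the other tested probes, with an unadjusted p = 0.0219 and an adjusted p = 0.999 in limma. Of 1060 probes 0 were called (0%), and 0.755% were lower at an unadjusted p under 0.05. Day 2 of series B lay above day 0, so the early arrays overlapped it. The difference was -1.62 when day 2 was taken from series B alone and -2.59 when it was taken from series A alone. Across all probes, day 0 of series A correlated at 0.24 with day 1 and 0.04 with day 2 of series A, where Mnt was low. Its correlation with day 2 of series B, where Mnt was high, was 0.76. The part of these array profiles in the early difference was not tested. From early to late days Mnt was 1.49 log2 higher (SE 0.65, unadjusted p = 0.0367, adjusted p = 0.730 in limma). Myb was 1.62 lower over the same days (difference -1.62, SE 0.80, unadjusted p = 0.0584, adjusted p = 0.770). Of 1050 probes 0 were called (0%), and 6.38% had an unadjusted p under 0.05.

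**Figure D2:**
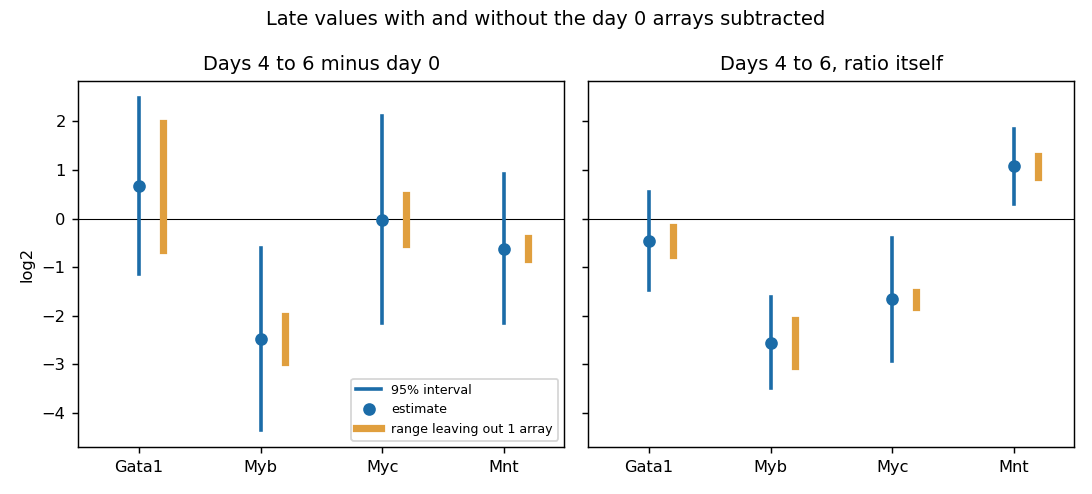
Estimates in log2 for days 4 to 6 minus day 0 (left) and for the ratio of days 4 to 6 itself (right), with 95% intervals from limma and, as thick bars, the range of the estimate when 1 array was left out. Myb lies below 0 in both panels (-2.49 and -2.55), while Mnt (-0.62 and 1.07) and Gata1 (0.67 and -0.47) change sign between them.

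Myc was measured on 10 of the 13 arrays, below the minimum of 11 for the main test, and its values come from a fit without that filter. For days 0, 1, 2, 3, 4, 5 and 6 of series A its log2 ratio was -1.14, -0.37, 0.16, 1.10, -1.56, -2.61 and -0.36, in that order. For days 0, 2 and 5 of series B it was -2.14, -2.73 and -3.54. SD arrays of days 0, 3 and 5 gave -2.92, -0.68 and -1.18. Like Mnt, Myc was thus away from 0 on the day 0 arrays, but on the other side: it was below -1 on all 3, as were 7.88% of the 1536 probes. Day 5 was low in both series, and day 3 of series A was the highest of its values.

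Late ratios of Myc were below 0 on 4 of 4 arrays, with a mean over days of -1.66 log2 (SE 0.59, 95% interval -2.94 to -0.39) and an adjusted p = 0.0850 in limma. The adjusted p was 0.0395 with quantile normalization, 0.0286 with equal spread of the arrays and 0.0303 when either array of day 2 was left out, where the ratio stayed at -1.66 because day 2 is not part of the mean. The difference from day 0 was -0.027 log2 (SE 0.98, 95% interval -2.16 to 2.10, lower on 2 of 4 arrays). Its sign rested on single arrays, with 0.47 and -0.18 when days 0 and 5 of series A were left out in turn, and -0.53 and 0.13 when those of series B were. The early difference was 0.81 log2 from day 0 (SE 1.04). It was 1.31 and 0.31 with day 0 of series A and of series B left out in turn, and 0.085 and 1.53 with day 2 of each left out. The early to late difference was -0.84 (SE 0.90), and -0.11 or -1.56 with day 2 of series A or B left out. With all arrays these 3 differences had adjusted p from 0.997 to 0.99986 in limma and intervals that include changes of more than 1 log2 either way. None was called with an array left out, where the lowest adjusted p was 0.477 (for -1.56).

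Gata1, the lineage factor, was close to the array median on most arrays and showed no course that exceeded its spread. For days 0, 2, 3, 4, 5 and 6 of series A its log2 ratio was 0.17, 0.15, 0.43, -1.02, 1.15 and -0.30, in that order. For days 0, 2, 3, 5 and 6 of series B it was -2.44, -0.11, -0.65, 0.37 and -1.99. SD arrays of days 0, 2, 3, 5 and 6 gave -0.64, -1.13, 0.04, -0.47 and -0.37. Day 5 was the highest day in both series, and late and day 0 arrays overlapped. The day 0 arrays were 2.61 log2 apart, the widest gap between series of any day for this gene.

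The late ratio of Gata1 was -0.47 log2 (SE 0.47, 95% interval -1.47 to 0.54, below 0 on 3 of 5 arrays, adjusted p = 0.472 in limma). It was -0.75 with day 6 of series A and -0.18 with day 6 of series B left out, -0.19 without centring, -0.25 with quantile normalization and -0.26 with SD arrays turned and averaged in. Relative to day 0 it was 0.67 log2 higher (SE 0.86, 95% interval -1.15 to 2.49, higher on 4 of 5 arrays, adjusted p = 0.99985 in limma). That sign rested on day 0 of series B: the difference was -0.64 without that array and 1.97 when the other day 0 array was left out. With day 6 of series A left out it was 0.39. Day 1 was not measured for Gata1, so no early difference was fitted. In the order of late ratios Mnt was highest, followed by Gata1, Myc and Myb, and a turned ratio direction would reverse it. As differences from day 0 the order was Gata1 (0.67), Myc (-0.027), Mnt (-0.62) and Myb (-2.49), with overlapping intervals. For late ratios the intervals of Mnt and Gata1 overlapped, as did those of Gata1 and Myc and of Myc and Myb, whereas those of Gata1 and Myb did not.

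Within an array the centring cancels, so members were also set against each other there, as differences of log2 ratios with no test because they were chosen together. Gata1 minus Myb was 2.11, 4.96 and 2.79 log2 on days 4, 5 and 6 of series A and 1.34 and -0.86 on days 5 and 6 of series B, against 0.25 on day 0 of series A and -2.38 on day 0 of series B. Within each series every late array was above that series' own day 0, although day 6 of series B lay below day 0 of series A. The median was 2.11 over the 5 late arrays and -1.07 on day 0. SD arrays of days 0, 2, 3, 5 and 6 gave -0.49, -2.14, 0.76, -1.98 and -0.42. Days 2, 3 and 5 thus had the opposite sign to the other series B arrays of their day (2.27, -0.086 and 1.34).

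Gata1 minus Myc had a late median of 2.15 log2 over 4 arrays (0.06 to 3.91), against -0.30 and 1.31 on day 0. Both series were high on day 5, at 3.76 in series A and 3.91 in series B, while days 4 and 6 of series A (0.54 and 0.06) lay within the range of day 0. SD arrays of days 0, 3 and 5 gave 2.28, 0.72 and 0.71, so that the SD array of day 0 lay above the late median. Myc minus Mnt was 1.27, 0.33 and 0.01 on days 1, 2 and 3 of series A, but -0.88, -4.35 and -1.78 on days 4, 5 and 6, and it was -2.84 on day 0. For days 0, 2 and 5 of series B it was -3.82, -4.52 and -5.98, and SD arrays of days 0, 3 and 5 gave -4.16, -0.93 and -2.56. In series A the value of Myc minus Mnt was thus highest on days 1 to 3, where series B gave a single array with the opposite position. As a difference of ratios that was far from 0 on day 0 as well, it does not give the balance of the 2 transcripts.

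**Figure D3:**
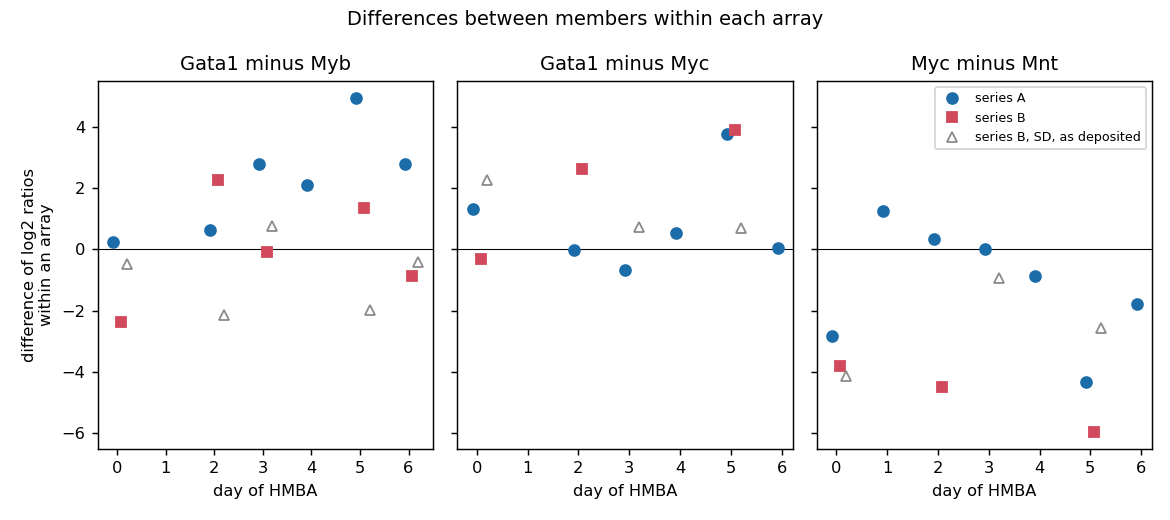
Difference of centred log2 ratios within each array for Gata1 minus Myb, Gata1 minus Myc and Myc minus Mnt against the day of HMBA, with circles for series A, squares for series B and open triangles for SD arrays as deposited. Gata1 minus Myb reaches 4.96 on day 5 of series A, and Myc minus Mnt is lowest on day 5 of series B (-5.98).

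Genes around the 4 members came from lists written with earlier results of these data in view, and are given as counts beside all probes. Of 2615 probes with a late difference from day 0, 59.4% were higher, and of 2956 with a late ratio, 51.5% were below 0. For partners of Gata1 and fellow erythroid factors, 8 of 12 measured probes were higher than day 0 (median 0.37 log2), but 12 of 14 had a late ratio below 0 (median -0.54). Of the 6 that passed the filter 0 were called against day 0 and 3 were called below 0, where 9.33% of all tested probes were called lower. Gata2, the factor that precedes Gata1 in progenitors, had a late ratio of -1.29 (adjusted p = 0.0455 in limma), Ldb1, which joins Gata1 to enhancers, -2.37 (adjusted p = 0.0018) and the repressor gene Gfi1b -1.98 (adjusted p = 0.0222). Their day 0 arrays were low as well, at -0.80 and -2.38 for Gata2, -1.14 and -2.69 for Ldb1 and -1.41 and -1.82 for Gfi1b. Differences from day 0 were accordingly 0.30, -0.46 and -0.37 log2. Klf1, an activator of adult beta-globin, was 1.08 log2 above day 0 and Bcl11a, a repressor of embryonic globin, was -1.14 from it (adjusted p = 0.99986 in limma for each). Both failed the filter, so these values come from the fit without it. Klf1 read -0.99 and -2.55 on day 0 and had a late ratio of -0.69. Bcl11a read 0.82 and 0.30 on day 0 and had a late ratio of -0.58.

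Of known targets of Gata1, 7 of 11 were higher than day 0 (median 0.66 log2), and of the 6 that passed the filter 2 were called above 0 and 1 below 0, where 16.2% and 9.33% of all tested probes were. Hbb-b2, adult beta-globin, had a late ratio of 2.36 (adjusted p = 0.0023 in limma) and Btg2, an antiproliferative gene, also 2.36 (adjusted p = 0.0056), while the erythropoietin receptor gene Epor had -1.78 (adjusted p = 0.0256). Late arrays of Hbb-b2 lay between 0.36 and 3.57, against 0.31 and -0.25 on day 0. For Epor the day 0 arrays read -1.46 and -1.95, and its difference from day 0 was -0.08 log2. Alas2, the first enzyme of heme synthesis in red cells, failed the filter and was 3.60 log2 above its single day 0 value (SE 1.16, adjusted p = 0.99986 in limma without the filter). Its late ratio was 2.91 (adjusted p = 0.0137). Car2, a target that also failed the filter, went the other way. Its late ratio was -2.29 (adjusted p = 0.0077 in limma without the filter), and it was -0.64 log2 from its single day 0 value. Targets thus included genes on either side of 0 while Gata1 itself was not called.

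For relatives, cofactors and targets of Myb, 9 of 16 probes had a late ratio, 6 below 0 and 3 above 0 (median -0.55 log2), and 4 of 7 were higher than day 0. A single probe passed the filter, that of the cell cycle kinase gene Cdk6, with a difference from day 0 of -0.25 log2 (SE 0.70) and late arrays between -0.72 and 0.58. Hipk2, a kinase that acts on Myb, had 2 probes, at 0.30 (SE 0.83) and 0.047 (SE 0.96) from day 0, whose late ratios had opposite signs (0.88 and -0.86). Neither gene was called (adjusted p = 0.99986 and 0.99985 in limma for Hipk2 and Cdk6).

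In the network of Max, its partners and cofactors, 7 of 9 probes had a late ratio below 0 and 5 of 8 were lower than day 0 (median -0.10 log2), and 0 of the 3 that passed the filter were called. Max, the shared partner of Myc and Mnt, differed from day 0 by -1.12 log2 (SE 0.70, late arrays -1.29 to 1.40, against 1.66 and 1.09 on day 0). Hdac2, a deacetylase of the repressor complexes that Mnt recruits, failed the filter and differed by -1.57 log2 (SE 0.99). Of known targets raised by Myc, 16 of 18 had a late ratio below 0 (median -0.97 log2), yet 8 of 17 were higher and 9 lower than day 0 (median -0.16). Of the 12 that passed the filter 4 were called below 0, where 9.33% of all tested probes were: Nme2, a nucleoside diphosphate kinase gene (-2.33, adjusted p = 0.0047 in limma), the nucleolar genes Ncl (-2.21, adjusted p = 0.0090) and Npm1 (-1.81, adjusted p = 0.0247), and Pcna, the sliding clamp of replication (-1.10, adjusted p = 0.0491). On day 0 Nme2, Ncl and Npm1 were between -2.70 and -1.25, whereas Pcna was at -0.12 and -0.32. Differences from day 0 were -0.32 log2 for Nme2, -0.66 for Ncl, -0.16 for Npm1 and -0.88 (SE 0.78) for Pcna. None was called (adjusted p = 0.99985 in limma for each). Odc1, the first enzyme of polyamine synthesis, and Cdk4 were 1.19 and 1.44 log2 above day 0, and neither was called (adjusted p = 0.99985 in limma). Tfrc, the transferrin receptor gene, failed the filter and was 2.76 log2 above its single day 0 value (SE 1.17, adjusted p = 0.99986 without the filter). Hspd1 and Cdc25a, which also failed it, went the other way. Their late ratios were -2.64 and -2.99 (adjusted p = 0.0398 and 0.0196 in limma without the filter). Hspd1 was -1.87 log2 from its single day 0 value, and Cdc25a had none.

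Of genes that Myc is known to lower, 3 of 6 had a late ratio above 0 and 3 of 5 were lower than day 0. Of the 2 that passed the filter 1, Btg2, was called above 0, where 16.2% of all tested probes were. Btg2 belongs to the Gata1 targets as well. Ndrg1, a stress response gene, differed from day 0 by 0.19 log2 (SE 0.81). Gas1, a growth arrest gene that failed the filter, differed by -2.80 log2 from its single day 0 value (SE 1.21, adjusted p = 0.99986 in limma without the filter), with a late ratio of -1.82 (adjusted p = 0.0826).

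**Figure D4:**
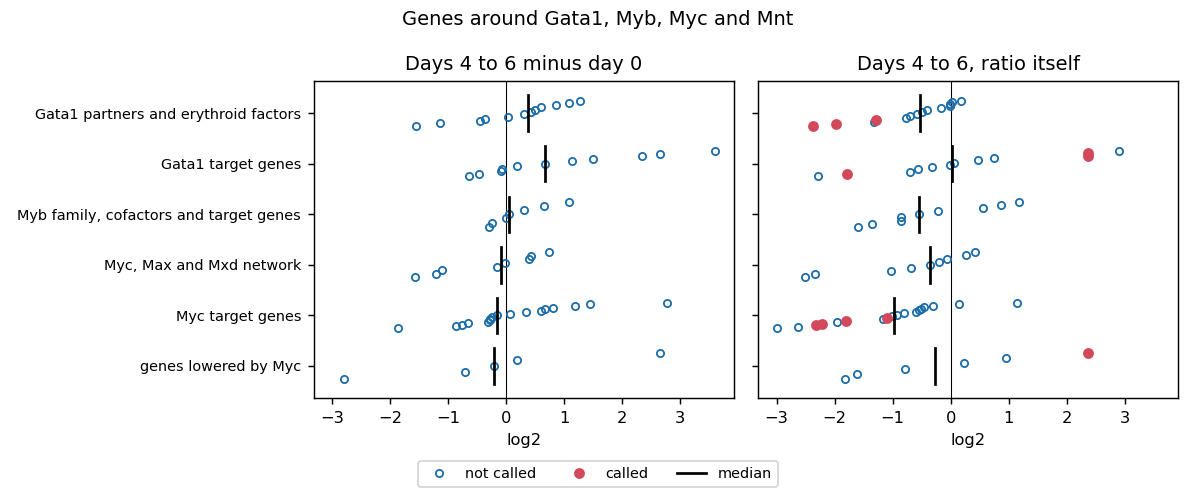
Late values in log2 for genes of 6 lists around the members, as days 4 to 6 minus day 0 (left) and as the ratio of days 4 to 6 itself (right), with filled points for probes that passed the filter and the threshold of 0.05 and a bar at each list's median. Myc targets lie mostly below 0 in the right panel (16 of 18) but on both sides of 0 in the left panel.

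Probes whose ratios ran closest to each member were found by the root mean square difference over at least 11 shared arrays of the 13. For Myb these were Ybx3, a gene of a cold shock domain protein (1.09 log2), the heparan sulfate enzyme gene Ndst2 (1.10) and Ass1, a gene of arginine synthesis (1.23), against a median of 2.50 over 1080 candidates. Mean late ratios of these 3 were -1.51, -3.82 and -1.15, against -0.67, -0.57 and 0.22 on day 0. For Mnt they were the splicing factor gene Smu1 (0.45), the receptor gene Gfra3 (0.63) and Srprb, a receptor subunit for the signal recognition particle (0.64), against a median of 1.67. Smu1 and Srprb shared the high day 0 reading of Mnt, with means of 1.70 and 1.72. For Gata1 they were Metap2 (0.70), the ATP synthase subunit gene Atp5k (0.75) and Cnih1 (0.83), among 374 candidates with a median of 1.67. Myc had too few arrays for this measure. Arrays shared by such probes also share their centring and their spread.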

How the data were processed

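Deposited values were log2 ratios of the 2 channels, a scale recognised from the values: on the 13 arrays without SD all of the lowest 5%, taken out of log2, had 3 decimals (within 0.02 of the last decimal), and on SD arrays all of the highest 5% were minus such a value. Background correction, normalization, dyes, scanner and numerator are not given in the sources used here. Medians were not 0, so each array was centred on its median. Direction is likely, not certain, and spot intensities were not used here. Platform annotation gave 1 symbol to 6108 probes, several to 41 and none to 719, and 6062 matched a gene table by Entrez identifier. Probes with at least 11 of 13 values and 1 day 0 value were fitted by day with moderated variances of limma 3.58.1 in R 4.3.3 (prior degrees of freedom 10.4), with Benjamini-Hochberg adjustment at 0.05. Day 1 had 1 array and was assumed to vary like the others. Fits were tested on simulated data. There the late test against day 0 recovered 2% of changes of 1 log2, 17.7% of 2 log2, 54.2% of 3 log2 and 73.4% of 4 log2. In the data Hba-ps3 itself, 4.43 log2 above day 0, was not called (adjusted p = 0.183 in limma). A probe not called against day 0 was thus not shown to be unchanged. SD arrays were left out because globin ran opposite on days 2, 5 and 6, though not on day 3. The day 0 array, with control RNA in both channels, cannot show this. The members and lists were chosen with earlier results of these data known. Besides the members, the text names list genes past the threshold, the 2 smallest late p-values of a list among probes with values on at least 2 day 0 and 4 late arrays, and the 3 closest probes. Alas2, Car2, Tfrc, Hspd1, Gas1, Mcpt2 and Kit had 1 day 0 value each and were chosen after their values were seen. So was Cdc25a, which had none on day 0. Alternatives covered centring, spread, the filter, the series letter, SD arrays, averaged probes and leaving out each array. The number of arrays limits precision.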

Additional observations from a re-analysis of the deposited data

Results flagged for a closer look

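Myc on the SD arrays, which entered no test, read -0.68 on day 3 and -1.18 on day 5, against -2.92 on day 0, so that the smaller excess of an induced array over day 0 was 1.74 log2. The values of days 2 and 6 were missing. On the arrays of series B without SD, the reading on day 5 was -3.54, against -2.14 on day 0, which is the opposite order. The part of channel order in this was not tested.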

How the results depend on the processing

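Myb kept its direction in all 4 comparisons (early against day 0 from -1.34 to -0.13) and its call against 0 under each alternative run. The call of Mnt against 0 did not hold throughout. Myc was not called against 0 in the main setting (adjusted p = 0.0850 in limma) but was under some alternatives. For Mnt the ratio was 1.07 without the filter and 0.55 with SD arrays turned, neither called, and 0.86 to 1.29 when 1 array was left out. For Myc the ratio became called with quantile normalization (-1.46), equal spread (-1.53) and the series letter as a replicate block (-2.20), and ran from -1.82 to -1.51 when 1 array was left out. Against day 0, Myc changed sign without centring (0.24), with quantile normalization (0.082), equal spread (0.31) and SD arrays averaged in as deposited (0.36). It also did with all 18 arrays and a constant term for SD arrays (0.55), which does not turn their sign. The same held when series A lost day 0 (0.47) or series B lost day 5 (0.13), and Myc ranged from -0.53 to 0.47 when 1 array was left out. Its early difference was -0.45 with SD arrays turned. Gata1 ranged from -0.64 (without day 0 of series B) to 1.97 late against day 0. The cause of these shifts was not tested. The 309 probes called against 0 became 89 with a value required on all 13 arrays (290 tested), 466 with the replicate block, 529 and 66 with SD arrays averaged in as deposited and turned (1828 tested), and 130 to 354 without 1 array, with 189 when day 6 of series A was left out and 185, 130 and 150 when days 4, 5 and 6 of series B were. The 0 late calls became 1 with the replicate block, and 0 to 1 without 1 array (1 without day 3 of either series). The series letters shared deviations in part (r of A minus B between days from -0.01 to 0.42 over 15 pairs of days), and nothing in the labels pairs them. Gata1 and Myc could not be fitted late without day 4 of series A, nor Myc without day 6 of series A, and the filter on all 13 arrays left both out. No early comparison could be fitted without the array of day 1.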
